A study of Mus musculus with 6 samples.

Results

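The 34 genes described here are the interferon receptors, the proteins that carry the interferon signal and a set of genes that interferon induces. They are a list of gene symbols drawn up with earlier results of these data known, and all 34 were found among the 25239 genes of the deposited count table. By role they fell into 8 signalling genes, 4 sensors of foreign or misplaced nucleic acid and 22 effectors. Their RNA was compared between 3 ovary libraries labelled WT and 3 labelled Hnrnpl-null, all from C57BL/6 mice at E18.5, late in gestation. Hnrnpl encodes an RNA-binding protein that regulates splicing. The labels name no Cre driver, promoter or allele, and they do not explain the abbreviation CKO in the titles of the Hnrnpl-null libraries. The name of the deposited table holds the word stra8, the symbol of a gene that germ cells express as they enter meiosis, and nothing says what it refers to. Whether the libraries of a group came from different animals is not stated, and p-values therefore measure only library-to-library spread, which may be technical. The ovaries had been dissociated with Liberase and DNase I.

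Interferons are secreted proteins that warn cells of viruses and other sources of foreign nucleic acid. Type I interferons bind a receptor made of the chains IFNAR1 and IFNAR2, whose kinases JAK1 and TYK2 phosphorylate transcription factors such as STAT2. STAT2 acts in a complex with IRF9 that binds a DNA element called ISRE in front of antiviral genes, whereas interferon gamma has its own receptor and acts mainly through an element called GAS. Many tissues express a low level of these genes without infection.

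Total counts were 8949781 to 22401419 per library. Pre-ribosomal RNA (Rn45s) made up 83.0% of WT replicate 1, 86.1% of Hnrnpl-null replicate 3 and 18.6% to 36.0% of the rest, which left 1757572 to 10980179 counts for all other genes. The 34 genes together had 995 counts in Hnrnpl-null replicate 3 and 3079 to 9569 in the other libraries. Low counts were nearly all even, so that 2 counts were taken as 1 read pair. Levels are given as CPM, the count scaled to library size, and 1 read pair was worth 0.625 CPM in Hnrnpl-null replicate 3 but 0.0762 to 0.264 CPM elsewhere. The Hnrnpl count itself, 162 ± 14.8 CPM for WT and 184 ± 25.5 CPM for Hnrnpl-null (SD, n = 3), was not called as different and does not check the labels. Oocyte is the cell type on the labels, and ovary the tissue. The 10 germ cell markers summed to 426 ± 34.8 CPM in WT, but the 10 stromal markers (6461 ± 292 CPM), the 10 granulosa markers (521 ± 21.7 CPM) and the 10 endothelial markers (206 ± 21.3 CPM) were present too. The levels below are those of a mixed sample.

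Promoter windows from RefSeq (GRCm38.p6), which run from 250 bases before each start to 50 after it, were matched to 26 of the 34 genes. The ISRE core, searched on both strands as GAAA, any 2 bases and GAAA again, was in 13 of those 26 genes, against 3.99% of the 27025 genes with a window. It was in 1 of 7 signalling genes, 2 of 2 sensors and 10 of 17 effectors. The GAS core, searched as TTCNNNGAA on both strands, was in 8 of the 26, against 9.55% of all genes with a window. The 150 bases upstream of the start are shown, 5′ to 3′ on the gene's strand, for the 5 genes that passed the test below and for Isg15, the effector with the lowest fitted ratio. Capitals mark the ISRE core and the GAS core.
Irf1, chr11:53769864-53770013, plus strand: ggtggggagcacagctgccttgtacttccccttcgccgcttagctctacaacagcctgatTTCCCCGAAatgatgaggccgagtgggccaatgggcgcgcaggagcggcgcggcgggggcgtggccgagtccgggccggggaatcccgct
Irf9, chr14:55603835-55603984, plus strand: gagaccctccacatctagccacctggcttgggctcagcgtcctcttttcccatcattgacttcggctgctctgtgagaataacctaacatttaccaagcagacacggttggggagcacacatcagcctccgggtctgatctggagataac
Bst2, chr8:71537473-71537622, minus strand: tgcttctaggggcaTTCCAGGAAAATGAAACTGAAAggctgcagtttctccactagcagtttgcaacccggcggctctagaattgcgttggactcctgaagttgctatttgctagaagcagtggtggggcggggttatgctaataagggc
Oasl2, chr5:114896784-114896933, plus strand: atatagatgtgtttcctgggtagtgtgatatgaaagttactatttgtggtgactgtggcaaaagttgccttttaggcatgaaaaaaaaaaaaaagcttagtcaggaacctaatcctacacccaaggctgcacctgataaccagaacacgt
Gbp2, chr3:142620513-142620662, plus strand: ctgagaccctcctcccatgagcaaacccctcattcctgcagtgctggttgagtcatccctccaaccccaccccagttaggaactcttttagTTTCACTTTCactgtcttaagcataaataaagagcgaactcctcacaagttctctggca
Isg15, chr4:156200819-156200968, minus strand: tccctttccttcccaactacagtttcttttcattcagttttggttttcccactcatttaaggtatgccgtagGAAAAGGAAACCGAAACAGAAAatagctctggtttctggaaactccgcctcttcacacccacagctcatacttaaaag
In Irf1 the capitals are a GAS core, 90 bases upstream of the start. In Bst2 they run from a GAS core into 2 overlapping ISRE cores, and in Isg15 they are 3 overlapping ISRE cores. Gbp2 holds a single ISRE core, on the opposite strand. Neither core was found in these windows of Irf9 and Oasl2, which says only that these letters are absent there.

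Some transcription factors and antiviral effectors of the interferon system fell in the Hnrnpl-null libraries, 1 GTPase rose, and the receptor chains were not called. The transcription factors Irf1 and Irf9 fell to 61.9% and 58.9% of WT, the antiviral genes Bst2 and Oasl2 fell to 42.4% and 51.6%, and the GTPase gene Gbp2 rose to 186% of WT. In bulk samples fewer cells of a type and less RNA per cell cannot be told apart, and marker genes of germ cells (lower) and leukocytes (higher) moved too, with values given after the pathway. A gene was called at an adjusted p below 0.05, from edgeR's quasi-likelihood test with Benjamini-Hochberg adjustment over all 14849 genes that passed a filter on low counts. Of the 34 interferon genes 31 passed that filter, 4 were called lower (12.9% of the 31, against 1.79% of all tested genes) and 1 was called higher (3.23%, against 2.67% of all tested genes). The other 26 were not called. In either direction 4.46% of all tested genes were called. Of the 31, 23 had a log2 fold change below 0, 7 above 0 and Ifit2 was at 0.00, while 51.2% of all tested genes were below 0. The 5 called genes are among the 14 that passed the count minimum in all 6 libraries. A further 7 passed it in each WT library but not in each Hnrnpl-null library, so that these passed the filter through their WT level. The count below 0 is therefore no support for a common direction.

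**Figure D1:**
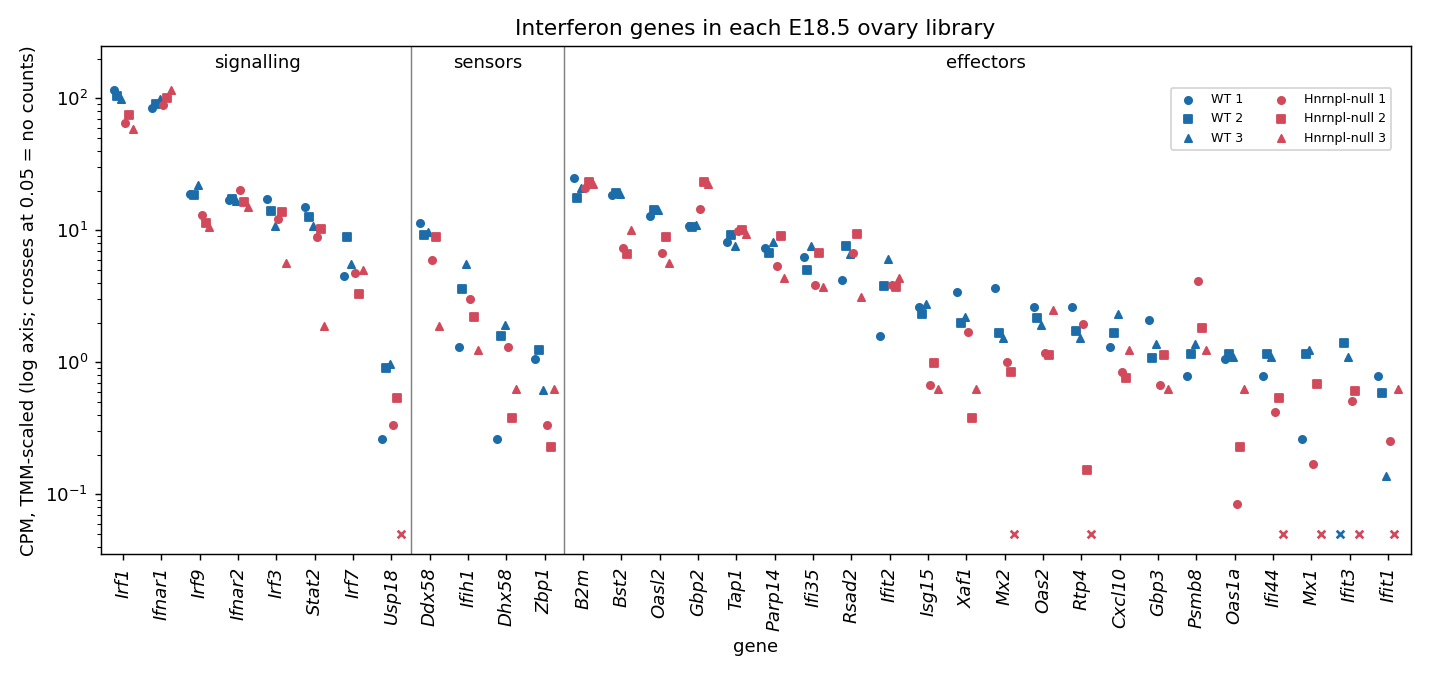
Level of each of the 34 interferon genes in each library, in TMM-scaled CPM on a log axis, grouped by role and ordered by WT mean. Circles, squares and triangles are replicates 1, 2 and 3, blue for WT and red for Hnrnpl-null, and crosses at the bottom are libraries with no counts, 6 of which belong to Hnrnpl-null replicate 3. The called genes Irf1, Irf9, Bst2, Oasl2 and Gbp2 show groups that do not overlap, as do some genes that were not called.

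Among the receptors, Ifnar1 encodes a chain of the type I interferon receptor. It was at 84.8, 90.4 and 98.4 CPM in WT replicates 1 to 3, and at 89.9, 100.4 and 116 CPM in the same order of Hnrnpl-null replicates. The groups overlapped, and Hnrnpl-null stood to WT at a ratio of 1.11 (95% interval 0.931 to 1.33, edgeR adjusted p = 0.54). Ifnar2, the chain that binds interferon most tightly, was at 16.9, 17.2 and 16.8 CPM in WT, and 20.3, 16.3 and 15 in Hnrnpl-null. These groups overlapped too, with a ratio of 1.03 (95% interval 0.801 to 1.32, edgeR adjusted p = 0.93). The intervals of both receptor genes leave out a fall to 61.9% of WT, the size seen for Irf1.

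Irf1 (chr11:53770014-53778374, mm10, plus strand) encodes a transcription factor that interferon gamma induces. It was at 117, 105 and 98.8 CPM in WT, and 64.8, 75.3 and 58.4 in Hnrnpl-null. All 3 Hnrnpl-null libraries lay below all 3 WT libraries. Group means of 107 ± 9.17 and 66.2 ± 8.50 CPM (SD, n = 3) gave -0.68 ± 0.12 (SE) as the log2 fold change, at an edgeR adjusted p of 0.0063. Irf1 had the highest WT level per kilobase of exon among the 34 genes, at 31.8 CPM per kb. Irf9 (chr14:55603985-55610030, plus strand), the DNA-binding part of the complex that type I interferon activates, was at 19.0, 18.6 and 22.1 CPM in WT. In Hnrnpl-null it was at 13.2, 11.3 and 10.6 CPM. The groups again did not overlap, and the log2 fold change was -0.74 ± 0.17 (edgeR adjusted p = 0.027). The Irf9 call was lost on leaving out any 1 WT library or Hnrnpl-null replicate 2 (adjusted p 0.065 to 0.12 by edgeR), while Irf1 was called in each of the 6 fits that left out 1 library.

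The remaining signalling genes were not called. Stat2, which acts together with IRF9, was at 15.02, 12.7 and 10.8 CPM in WT, and 8.98, 10.3 and 1.88 in Hnrnpl-null. Those groups did not overlap, but the lowest value rests on 6 counts, and 220 exonic bases of Stat2 are shared with Apof. Its log2 fold change was -0.69 ± 0.34 (edgeR adjusted p = 0.31), and it was -0.40 without Hnrnpl-null replicate 3. Irf3, which is activated when viral nucleic acid is sensed, was at 17.4, 14.0 and 10.8 CPM in WT, and 12.1, 13.7 and 5.63 in Hnrnpl-null, and its groups overlapped (edgeR adjusted p = 0.58). Irf7, which amplifies the interferon response, was at 6.32 ± 2.34 CPM in WT, and 4.35 ± 0.936 in Hnrnpl-null with overlapping groups (edgeR adjusted p = 0.36). Usp18, a brake on the receptor, was low in both groups at 0.713 ± 0.391 and 0.290 ± 0.270 CPM, from 38 and 22 counts. The 8 signalling genes summed to 269 ± 5.39 CPM in WT, and 219 ± 10.1 in Hnrnpl-null, of which Irf1 and Ifnar1 were the main part. Their median log2 fold change was -0.65, against -0.01 for all tested genes. That median includes Stat2, which passed the filter through its WT level. It also includes Usp18, past the count minimum in 2 WT libraries and 1 Hnrnpl-null library, and is no support for a common direction. Of those past the minimum in all 6 libraries, Irf9, Irf1, Irf7 and Irf3 were at -0.745, -0.683, -0.612 and -0.316. Ifnar2 and Ifnar1 were at 0.042 and 0.156.

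The 4 sensors detect nucleic acid in the cell. Ddx58, which encodes the RNA sensor RIG-I, was the most abundant of them per kilobase. It was at 11.3, 9.29 and 9.65 CPM in WT, and 5.99, 8.91 and 1.88 in Hnrnpl-null. The groups did not overlap, at -0.68 ± 0.34 on the log2 scale (edgeR adjusted p = 0.30), or -0.42 without Hnrnpl-null replicate 3. Ifih1, which encodes the RNA sensor MDA5, was at 1.32, 3.57 and 5.58 CPM in WT, and 3.04, 2.21 and 1.25 in Hnrnpl-null, so that the WT libraries alone spanned all but the lowest value. Dhx58, the regulator LGP2, was at 1.26 ± 0.878 and 0.771 ± 0.480 CPM. Zbp1, a sensor of left-handed nucleic acid, did not pass the filter, with 47 counts in WT and 16 in Hnrnpl-null. By edgeR, DESeq2 and limma-voom alike 0 of the 3 sensors tested were called, and 0 had an unadjusted edgeR p below 0.05. Their log2 fold changes were all below 0, as were those of 51.2% of all tested genes, with a median of -0.68. That median is the value of Ddx58, which passed the filter through its WT level. Ifih1 and Dhx58 passed the count minimum in 2 WT libraries each, and in 2 and 1 Hnrnpl-null libraries. The direction and median of the sensors are therefore no support for a common direction.

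Bst2 (chr8:71534256-71537472, minus strand), which encodes tetherin, a membrane protein that holds budding viruses on the cell, had the smallest adjusted p of the 34 genes. It was at 18.4, 19.1 and 19.0 CPM in WT, and 7.34, 6.63 and 10 in Hnrnpl-null. Every Hnrnpl-null library was far below the WT libraries, which lay close together. The log2 fold change was -1.31 ± 0.20 (edgeR adjusted p = 0.0017), and Bst2 was called in each of the 6 fits that left out 1 library. Oasl2 (chr5:114896934-114912245, plus strand), of the oligoadenylate synthetase family, was at 12.9, 14.3 and 14.3 CPM in WT, and 6.79, 8.99 and 5.63 in Hnrnpl-null. The groups did not overlap. Its log2 fold change was -0.91 ± 0.22 (edgeR adjusted p = 0.032), and its call was lost on leaving out any 1 WT library or Hnrnpl-null replicate 1 (adjusted p 0.063 to 0.13 by edgeR).

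Several classical interferon-induced genes were at low level and were not called. Isg15, a ubiquitin-like modifier that is joined to proteins after interferon, was at 2.63, 2.32 and 2.76 CPM in WT, and 0.674, 0.9899 and 0.625 in Hnrnpl-null. The groups were well apart, but the Hnrnpl-null values rest on 16, 26 and 2 counts. Its log2 fold change was -1.67 ± 0.54 with an edgeR adjusted p of 0.11 (0.049 by limma-voom). Mx2, of the family of dynamin-like GTPases, was at 3.69, 1.66 and 1.52 CPM in WT, and 1.01, 0.838 and 0 in Hnrnpl-null. Xaf1, a pro-apoptotic zinc finger protein, was at 3.43, 1.99 and 2.21 CPM in WT, and 1.69, 0.381 and 0.625 in Hnrnpl-null. In both genes the WT libraries were above the Hnrnpl-null libraries, with edgeR adjusted p of 0.26 and 0.27. Ifi44 and Cxcl10, a chemokine that draws T cells, also had groups that did not overlap, with log2 fold changes of -1.32 ± 0.74 and -1.01 ± 0.60 (edgeR adjusted p = 0.37 and 0.40). Of the 31 tested genes 11 had all Hnrnpl-null libraries below all WT libraries (35.5%, against 13.2% of all tested genes), and 2 had them above (against 12.4%). Of those 11, 5 passed the filter in each WT library but not in each Hnrnpl-null library, so their share is no support for a common direction. Of the 14 genes that passed in all 6 libraries, 4 had separate groups on the lower side (Irf1, Irf9, Bst2 and Oasl2) and 2 on the higher side (Gbp2 and Tap1).

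Other low effectors had overlapping groups, Oas1a excepted. Mx1, which is defective in this mouse strain, was at 0.888 ± 0.542 and 0.285 ± 0.357 CPM, and Ifit3, an RNA-binding protein with a near-identical neighbour, was at 0.837 ± 0.741 and 0.372 ± 0.326 CPM. Rtp4, a chaperone of membrane receptors, was at 2.63, 1.74 and 1.52 CPM in WT, and 1.94, 0.152 and 0 in Hnrnpl-null. Its log2 fold change ran from -3.85 to -0.59 over the 6 fits that left out 1 library. Oas2, a synthetase of the RNase L activator, was at 2.24 ± 0.360 and 1.61 ± 0.773 CPM, and Gbp3, a guanylate-binding GTPase, was at 1.52 ± 0.530 and 0.814 ± 0.285 CPM. Ifit1 and Oas1a did not pass the filter. Ifit1 had 22 counts over WT and 8 over Hnrnpl-null. Oas1a, which has close paralogs next to it, was at 1.05, 1.16 and 1.10 CPM in WT, and 0.0843, 0.228 and 0.625 in Hnrnpl-null, from 52 and 10 counts, and its groups did not overlap.

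A further set of effectors also had overlapping groups. Ifit2, which binds viral RNA, was at 1.58, 3.81 and 6.06 CPM in WT, and 3.88, 3.73 and 4.38 in Hnrnpl-null, so the WT libraries spanned the Hnrnpl-null ones. Its ratio was 1.0 with a 95% interval of 0.600 to 1.67. Rsad2, the antiviral enzyme viperin, was at 6.15 ± 1.75 and 6.41 ± 3.13 CPM with overlapping groups, and a ratio of 1.10 (95% interval 0.670 to 1.82). Parp14, an ADP-ribosyltransferase, was at 7.41 ± 0.708 and 6.27 ± 2.44 CPM, and Ifi35 was at 6.29 ± 1.30 and 4.78 ± 1.67 CPM. Neither was called (edgeR adjusted p = 0.81 and 0.63). The interval of Ifit2 still includes the ratio measured for Irf1 and that of Rsad2 reaches down to 0.670, so neither gene is shown to have been level.

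Gbp2 (chr3:142620663-142638008, plus strand), a guanylate-binding GTPase that attacks the vacuoles of intracellular pathogens, was the only 1 of the 34 called higher. It was at 10.8, 10.5 and 11.03 CPM in WT, and 14.5, 23.1 and 22.5 in Hnrnpl-null. The groups did not overlap, and Hnrnpl-null replicate 1 was the nearest to WT. The log2 fold change was 0.88 ± 0.20 (edgeR adjusted p = 0.027). The call was lost on leaving out any 1 WT library or Hnrnpl-null replicate 2 (adjusted p 0.067 to 0.16 by edgeR), and 24 exonic bases are shared with a microRNA gene on the other strand.

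The members that serve antigen presentation on MHC class I, namely B2m, Tap1 and Psmb8, were not called lower. B2m, the light chain of class I molecules, was at 25.0, 17.6 and 21.0 CPM in WT, and 21.0, 23.4 and 22.5 in Hnrnpl-null. The groups overlapped, with a ratio of 1.06 (95% interval 0.830 to 1.35, edgeR adjusted p = 0.84). Tap1, which carries peptides into the endoplasmic reticulum, was at 8.17, 9.20 and 7.58 CPM in WT, and 9.87, 10.1 and 9.38 in Hnrnpl-null. Its Hnrnpl-null libraries were all above WT, but it was not called (edgeR adjusted p = 0.61). Psmb8, a subunit of the immunoproteasome, was at 1.11 ± 0.297 and 2.403 ± 1.52 CPM (edgeR adjusted p = 0.28). The 22 effectors summed to 117 ± 4.01 CPM in WT, and 99.0 ± 9.81 in Hnrnpl-null. Over the 20 effectors tested the median log2 fold change was -0.84, with a range from -1.67 to 1.17. That median includes Isg15, Oas2, Mx2, Rtp4 and Xaf1, which passed the filter through their WT level. Of those past the count minimum in all 6 libraries, Bst2, Oasl2, Ifi35 and Parp14 were at -1.31, -0.905, -0.333 and -0.167. B2m, Rsad2, Tap1 and Gbp2 were at 0.082, 0.143, 0.235 and 0.877. With no filter, which admits all 34 genes, the medians were -0.64 for signalling genes, -0.69 for sensors and -0.92 for effectors.

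**Figure D2:**
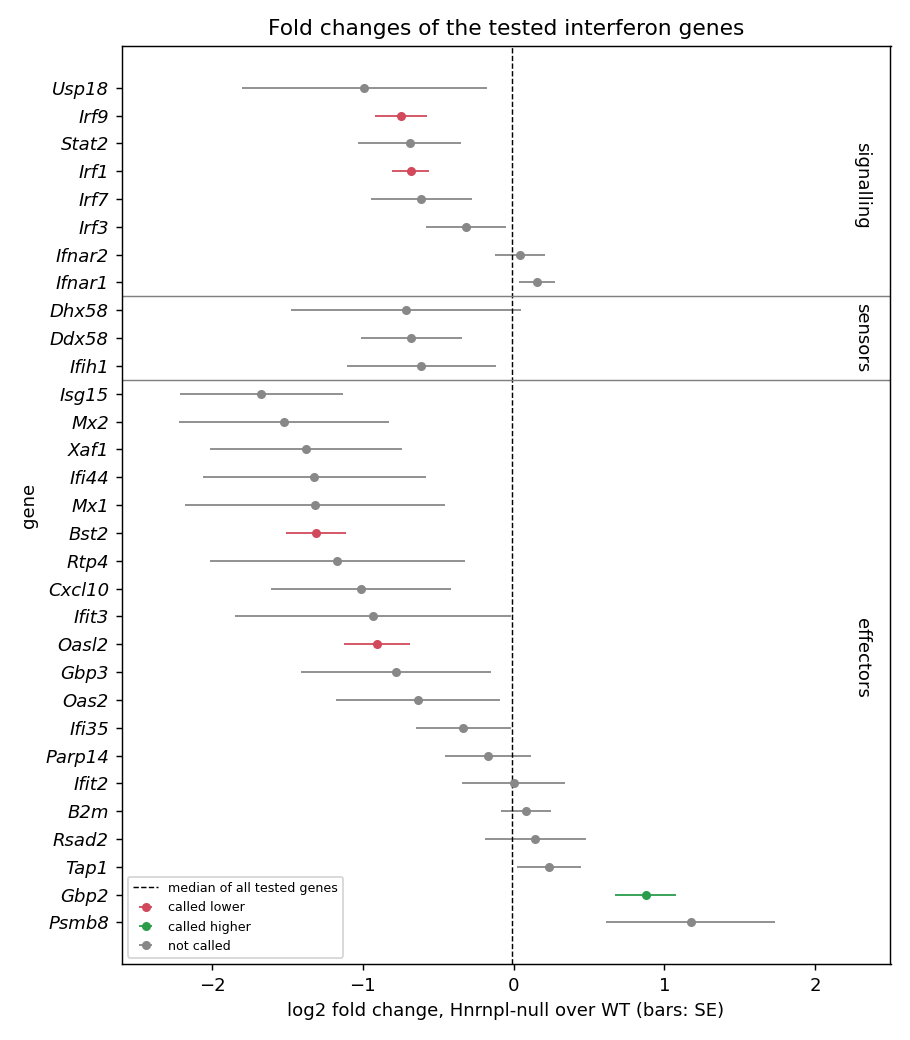
Log2 fold change of Hnrnpl-null over WT for the 31 interferon genes tested, by role, with bars of 1 SE and a dashed line at the median of all tested genes (-0.01). Red marks the 4 genes called lower (Irf9, Irf1, Bst2 and Oasl2), green the 1 called higher (Gbp2) and grey the 26 not called. Of the 31 points 23 lie below 0, against 51.2% of all tested genes.

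The median of the 31 tested genes lay below that of all tested genes in each of the 3 Hnrnpl-null libraries, by unequal amounts. Relative to the WT mean on a scale of log2(CPM + 1), the 31 tested genes had a median of -0.40, -0.24 and -0.79 in Hnrnpl-null replicates 1 to 3, against -0.01, -0.01 and -0.07 for all tested genes. In these libraries 24, 23 and 24 of the 31 were below the WT mean, against 51%, 51.5% and 54.8% of all tested genes. In WT replicates 1 to 3 they were 18, 18 and 13 of the 31. The 31 include 7 that passed the filter through their WT level, so these medians and counts are no support for a common direction. The lowest median was that of Hnrnpl-null replicate 3, which also has the fewest counts. Without it and WT replicate 1, the 2 libraries richest in Rn45s, the calls were again Irf1, Irf9, Bst2 and Oasl2 lower and Gbp2 higher. With library totals alone in place of TMM scaling, 0 of the 34 genes and 4 of all genes were called.

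The rest of the pathway was read from 110 other genes. They include genes not particular to interferon, such as the chaperones Calr, Canx and Pdia3 and the phosphatases Ptpn6 and Ptpn11. Of the 110, 86 passed the filter, 4 were called lower and 7 higher (4.65% and 8.14%, against 1.79% and 2.67% of all tested genes). Calr and Ptpn6 were among the 7. None of the 12 genes that encode interferons themselves reached the filter. Of these, 10 had no counts in any library, Ifnb1, Ifng and Ifne among them, which allows a mean of up to 0.130 CPM in WT, and 0.113 in Hnrnpl-null (3 read pairs, or 6 counts, over a group, counting error only). Ifnk had 12 counts in WT and 0 in Hnrnpl-null, and Ifnz had 8 and 4.

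The kinases Jak1 and Tyk2 were not called, at 128 ± 2.77 and 14.1 ± 1.22 CPM in WT, and 136 ± 6.61 and 16.01 ± 1.25 in Hnrnpl-null. Jak1 shares 397 exonic bases with Raver2. Ifngr1, the binding chain of the interferon gamma receptor, rose from 13.2, 13.7 and 13.5 CPM to 31.1, 28.4 and 23.8 CPM. Its groups were far apart, at 1.06 ± 0.16 on the log2 scale (edgeR adjusted p = 0.0014), whereas its partner Ifngr2 was not called at 24.7 ± 3.08 and 29 ± 4.999 CPM. Ptpn6, a phosphatase of blood cells that dampens cytokine receptors, rose from 2.52 ± 0.519 to 8.21 ± 0.586 CPM (edgeR adjusted p = 0.0053).

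Further effectors called lower were Irgm2 and Iigp1, GTPases that interferon gamma induces, and Ifi27. Iigp1 fell from 10.8, 7.38 and 8.96 CPM to 3.46, 4.42 and 3.75 CPM (edgeR adjusted p = 0.024), and Irgm2 fell from 10.6 ± 0.777 to 5.001 ± 0.772 CPM (edgeR adjusted p = 0.024). Ifi27, whose exons share 103 bases with Ifi27l2a, fell from 36.5 ± 2.397 to 24.6 ± 3.35 CPM. Each of these 3 was called in only 1 of the 6 fits that left out 1 library (edgeR adjusted p of 0.021 to 0.18). Lgals9, a galectin, rose from 14.8 ± 1.17 to 23.1 ± 1.30 CPM and was likewise called in 1 of the 6. Of the 40 other effectors tested, 36 were not called, and the median log2 fold change was -0.06.

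Of the 14 antigen presentation genes tested, 4 were called higher (28.6%, against 2.67% of all tested genes). All 14 had a log2 fold change above 0, as did 48.8% of all tested genes, and the median was 0.45. H2-K1, a class I heavy chain, rose from 12.9, 15.01 and 13.8 CPM to 25.1, 25.1 and 31.9 CPM. The groups did not overlap, at 0.95 ± 0.16 on the log2 scale (edgeR adjusted p = 0.0043), and the call held in each of the 6 fits that left out 1 library. H2-D1, whose exons share 1060 bases with H2-L, rose from 3.83 ± 0.372 to 8.64 ± 1.34 CPM and was called in 2 of the 6. Calr, a chaperone, rose from 274 ± 24.7 to 406 ± 26.5 CPM and was called in 3 of the 6. Erap1, which trims peptides, rose from 16.4 ± 2.27 to 26.7 ± 5.27 CPM, with its call lost in all 6 (edgeR adjusted p of 0.053 to 0.20). Levels of class I heavy chains are uncertain where near-identical copies share reads.

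**Figure D3:**
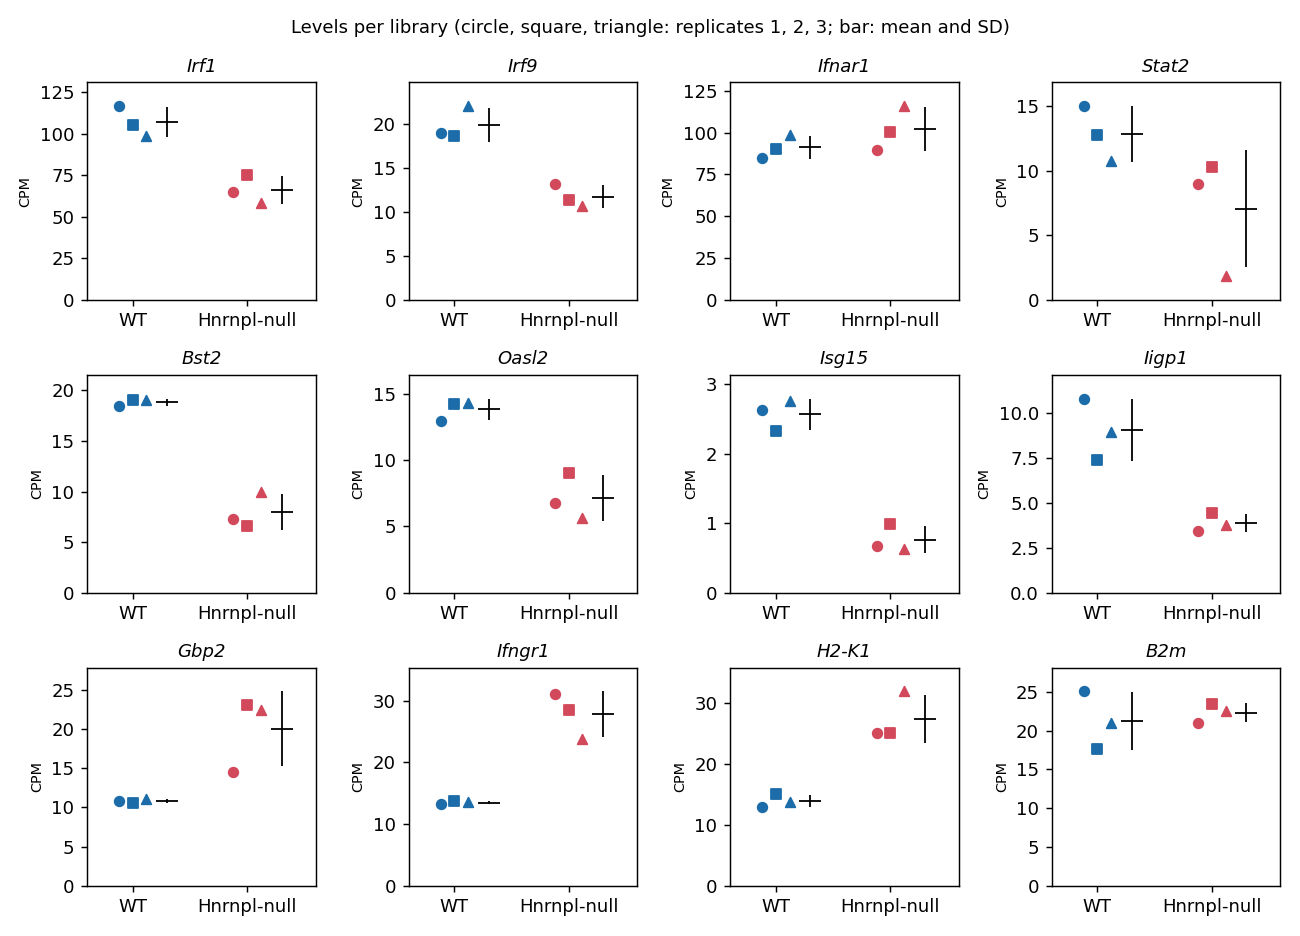
Level of 12 interferon pathway genes in each library, in CPM on axes that start at 0. Circles, squares and triangles are replicates 1, 2 and 3, and the bars beside them are the mean and SD of 3 libraries. Irf1, Irf9, Bst2, Oasl2, Isg15 and Iigp1 are lower in every Hnrnpl-null library than in any WT library, Gbp2, Ifngr1 and H2-K1 are higher, Ifnar1 and B2m overlap, and Stat2 has a single very low library.

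Of 19 tested genes of interferon induction, among them adaptors, kinases and Toll-like receptors, 0 were called by edgeR, while 5 of the 19, and 2746 of the 14849 genes tested in all, had an unadjusted edgeR p below 0.05. In this group 1 rise and 1 fall were called by both DESeq2 and limma-voom. Those 2, named after their values were seen, were Irf8 and Trim25. Irf8, a transcription factor of myeloid cells, was at 2.11, 2.78 and 1.65 CPM in WT, and 6.66, 5.86 and 3.13 in Hnrnpl-null. Its groups did not overlap (edgeR adjusted p = 0.068). Trim25, the ubiquitin ligase that activates RIG-I, was at 55.4 ± 3.65 and 42.1 ± 1.56 CPM (edgeR adjusted p = 0.072).

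Markers of several cell types moved with these genes. Of all tested genes 2.67% were called higher and 1.79% lower, the shares to set beside the counts that follow. Leukocyte markers were higher for 7 of 9 tested, and the 10 of them summed to 43.7 to 56.9 CPM in WT and 199 to 207 CPM in Hnrnpl-null. Markers of myeloid progenitors were higher for 8 of 10 tested, with sums of 3.95 to 5.06 and 554 to 733 CPM. Macrophage markers were higher for 1 of 10 (Cx3cr1), with sums of 87.2 to 94.7 and 98.5 to 140 CPM. Germ cell markers were lower for 10 of 10, with sums of 400 to 465 and 155 to 193 CPM. Endothelial markers were called for 0 of 10 by edgeR, with 4 at an unadjusted p below 0.05, while 2 falls and 1 rise were called by both DESeq2 and limma-voom. Their sums overlapped, at 189 to 230 and 173 to 199 CPM. Stromal markers were higher for 4 of 10 tested, with sums of 6124 to 6644 and 9070 to 10450 CPM, and mesothelial markers for 3 of 7. The stromal genes called were the matrix genes Col1a1, Col1a2, Col3a1 and Dcn. Col1a1, Col1a2 and Col3a1 made up most of the sum, at 2792, 1230 and 1972 of 6461 CPM in WT. The other 6 were not called, with Nr2f2, Tcf21 and Acta2 below 0 on the log2 scale and Pdgfra, Lum and Pdgfrb above. Plasmacytoid dendritic cells, which make much interferon, had 4 of 8 markers below the filter. Among these was their defining gene Siglech, at 0.0878 CPM in WT, and 0.369 in Hnrnpl-null, from 2 and 28 counts. Of the 4 tested, 0 were called by edgeR, while DESeq2 and limma-voom each called 1 fall. The 8 markers summed to 80.2 to 93 CPM in WT and 55 to 73.3 in Hnrnpl-null. Most of that was Tcf4, at 78.6 ± 5.92 and 57.1 ± 8.29 CPM. Of the lymphocyte markers 8 of 10 were below the filter. Granulosa markers were higher for 1 of 9 tested (Kitl), and 0 of 3 erythroid markers tested were called by edgeR. DESeq2 and limma-voom each called 1 granulosa marker lower, and they called 1 and 2 erythroid markers higher. The part of these cell types in the levels of the interferon genes was not tested.

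**Figure D4:**
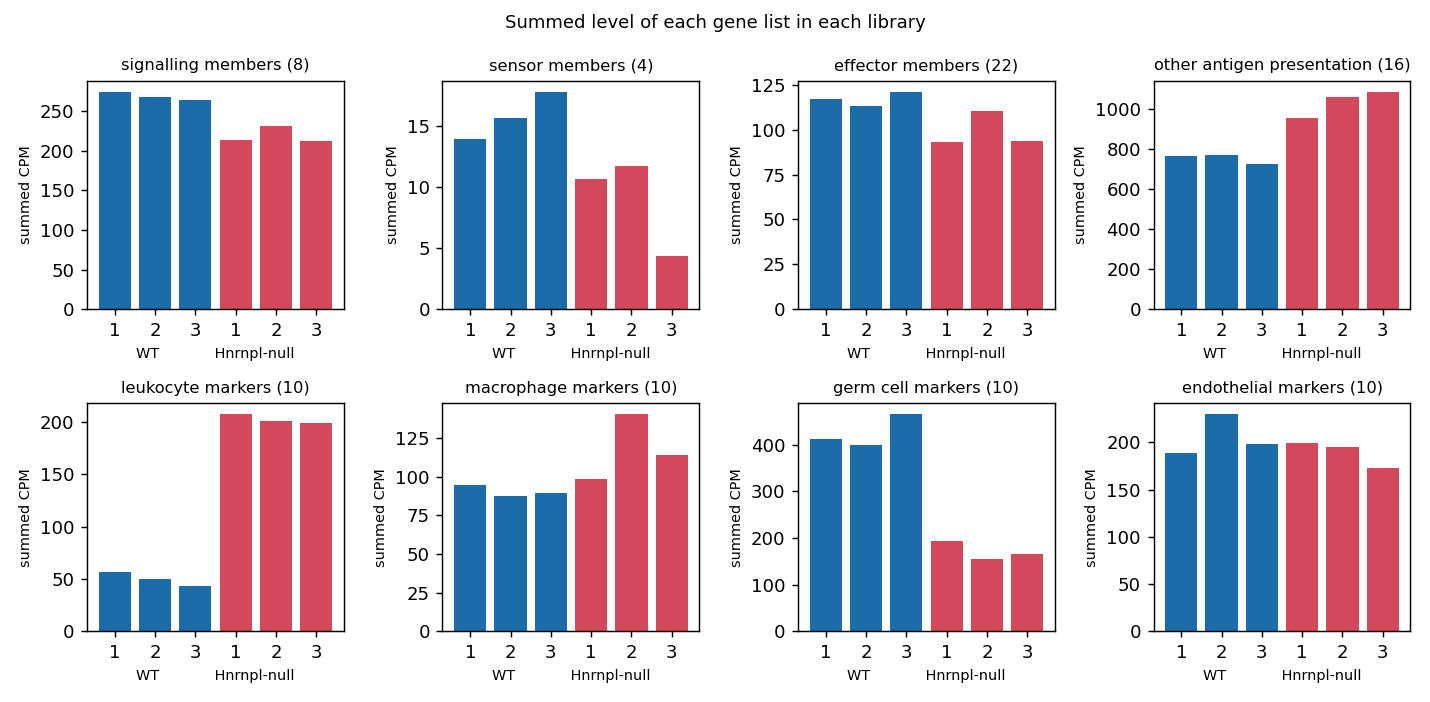
Summed level, in CPM, of the 3 roles of interferon genes, of 16 other antigen presentation genes and of 4 marker lists, as bars from 0 for each library (WT blue, Hnrnpl-null red, replicates 1 to 3). The sums of signalling genes, sensors and effectors are lower in every Hnrnpl-null library than in any WT library, as are the germ cell markers, while antigen presentation genes and leukocyte markers are higher. Calr, Canx and Pdia3 make up most of the antigen presentation sum, at 274.5, 154 and 173 of 755 CPM in WT. The 16 genes include the chemokines Cxcl9 and Ccl5, which were below the filter.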

How the data were processed

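Total RNA of 6 ovary samples was sequenced, per the labels' protocols. The authors deposited raw counts per gene with exonic length and exon coordinates, in the layout of featureCounts per the file headers. The submitters' processing notes name HISAT2 2.2.1, STAR 2.7.11a and featureCounts 2.0.6 on mm10, without roles. Annotation, strandedness and multimapping rules were not given in the sources used here. Libraries were grouped by the genotype label, and no column belongs to another sample.

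Counts were fitted over the whole table with genotype as the single term by edgeR's two-sided quasi-likelihood test (glmQLFit, glmQLFTest; version 4.0.16, R 4.3.3) after filterByExpr and TMM scaling. CPM use TMM-scaled library sizes. SE come from the F statistic, and 95% intervals from its degrees of freedom. The fit was tested on simulated data. Alternatives were DESeq2 1.42.0, limma-voom (limma 3.58.1), other scalings, filters and dispersions, a replicate block, and leaving out libraries. The gene lists, members and roles were chosen with earlier results of these data known. All 34 members are accounted for, called members with every library's value, and of the other pathway genes those called (the 10 with the smallest p), Jak1, Tyk2 and the interferon genes are named by rule, except that 1 called gene is not reported here. Erap1, Ifngr2, Irf8 and Trim25 were added after their values were seen. Promoter windows are those of RefSeq, and motif shares carry no test.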

Additional observations from a re-analysis of the deposited data

How the results depend on the processing

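The count of all genes called was 663, and it was 1086 by DESeq2, 1273 by limma-voom, 1104 with no filter on low counts and 249 to 853 when 1 library was left out. With library totals alone in place of TMM it was 4, with 0 interferon genes called lower, 0 higher, and 0 other pathway genes called in either direction; the totals of 2 libraries are mostly Rn45s. Leaving out 1 library gave 2 to 4 interferon genes called lower and 0 to 1 higher, 1 to 3 other pathway genes lower and 3 to 8 higher, and medians of -0.70 to -0.50 for signalling genes, -1.22 to -0.32 for sensors and -0.94 to -0.76 for effectors. With counts halved the effector median was -0.48, over 16 effectors tested instead of 20. Alternatives on the other pathway genes were added after seeing the data.

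The replicate numbers of the titles did not pair the libraries, since deviations of same-numbered libraries from their group means correlated at -0.14, 0.13 and -0.09. With the replicate number as a block 444 genes were called, 2 interferon genes were lower (Bst2 and Irf1) and 1 higher (Gbp2), and of the other pathway genes 1 was lower and 4 were higher.

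The genes whose log2 fold change changed sign were not called in any setting. Ifit2 was at 0.014 by DESeq2, 0.004 with no filter, 0.001 with at least 10 counts in 3 libraries, 0.009 without the Rn45s row, 0.48 without WT replicate 3, 0.02 and 0.05 without Hnrnpl-null replicates 1 and 2, and 0.22 with the replicate block. When 1 library was left out Rsad2 ranged from -0.207 to 0.356, B2m from -0.043 to 0.209, Ifnar2 from -0.105 to 0.112 and Ifit2 from -0.319 to 0.478. Rsad2 changed sign without WT replicate 1 (-0.039) too, and Irf3 was at 0.058 without both libraries richest in Rn45s. Depth limits the genes under about 3 CPM, for which Hnrnpl-null replicate 3 gives at most a few read pairs.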
